A study of Caenorhabditis elegans with 2 samples.

Results

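The TBX-2 binding peaks that rank just below the authors' optimal set are described here, as a band that starts at the peak after the last optimal one and holds as many peaks as the optimal set. The pooled list, sorted from the highest peak signal to the lowest with ties settled by chromosome and summit, held 25747 peaks, of which 25727 lay on nuclear chromosomes. The first stretch of this list was identical to the optimal set of 3034 nuclear and 19 mitochondrial peaks. The band is the second stretch of that length, all of it nuclear, and made up 11.9% of the list. Its members were chosen by pooled signal alone.

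The study mapped TBX-2 by chromatin immunoprecipitation and sequencing (ChIP-seq), in which DNA bound by a protein is pulled down with an antibody and counted along the genome. The Caenorhabditis elegans strain OP159 carries unc-119(ed3) III and the integrated transgene wgIs159, which makes TBX-2 with a C-terminal GFP and FLAG tag, and the antibody recognised GFP. Late embryos of hermaphrodites, 3.5 h after synchronization by bleaching, gave 2 biological replicates of 1 stable line, with no second genotype, treatment or time. Whole embryos were used, so a peak cannot be assigned to a cell type, and a list from a strain without the tag was not used here.

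T-box proteins bind DNA through a conserved domain and can repress or activate genes, and in the worm TBX-2 is required to form anterior pharyngeal muscle, part of the feeding organ. Peak callers return many weak sites, and a limit on the irreproducible discovery rate is set from how alike the ranks are between replicates. Here the peaks that passed were also the first of the pooled list by signal. Peaks just past such a limit can be weak in both replicates, strong in 1 of them, or neighbours of stronger peaks.

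The peak signal is the authors' own value per peak, comparable within a list only. In the band it ran from 53.2 to 81.6 with a median of 63.1. The last optimal peak, nearest to T04C9.3, had a signal of 81.598, and the first of the band, nearest to K09C4.2, had 81.556. At the lower limit the last member, nearest to the collagen gene col-103, had a signal of 53.167, and the first peak left out, nearest to ztf-27, had 53.154. The deposited −log10 q-value was at its highest, 2.98, in 258 band peaks (8.45%) and had a median of 1.74 in the band. Neither limit therefore falls at a gap in the values. The median width was 436 bp.

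The sequences at the summits of 4 band peaks are shown first because they lie at genes of the pharynx or at tbx-2 itself. Each runs from 50 bp before to 50 bp after the summit (WBcel235, the ce11 build, plus strand, RefSeq genome sequence). Capitals mark any of 4 motifs searched on both strands: the T-box site GGTGTGA, the GA repeat GAGAGA, the element CTGCGTCT and the GC-box GGGCGG.
myo-2 peak, chrX:12467776-12467876: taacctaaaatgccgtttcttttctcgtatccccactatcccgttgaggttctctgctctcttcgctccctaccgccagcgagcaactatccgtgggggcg
tbx-2 peak, chrIII:5133531-5133631: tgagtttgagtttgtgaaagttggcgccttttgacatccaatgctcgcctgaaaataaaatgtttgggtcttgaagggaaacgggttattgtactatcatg
ceh-22 peak, chrV:10671031-10671131: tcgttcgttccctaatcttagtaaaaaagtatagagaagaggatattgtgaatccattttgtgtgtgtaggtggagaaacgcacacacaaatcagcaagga
pha-4 peak, chrV:20753883-20753983: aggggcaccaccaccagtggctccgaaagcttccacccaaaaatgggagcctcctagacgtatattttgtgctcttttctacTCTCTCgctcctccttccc
The pha-4 window held 1 GA repeat on the minus strand, and the other 3 windows held none of the 4 motifs.

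Myo-2, the pharyngeal myosin heavy chain, had no optimal summit within 1 kb of a 5′ end and gained a band peak. This peak (chrX:12467608-12468043) ranked 4776 in the pooled list with a signal of 61.5, and its summit lay at -235 bp from the 5′ end, where negative distances are upstream. Replicate 2 had a peak there with a signal of 34.4, rank 3305 of its list. Replicate 1 had no overlapping peak in its whole relaxed list. The gain at myo-2 thus rested on 1 replicate.

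At tbx-2 an intron carried a band peak (chrIII:5133363-5133798, rank 3339, signal 77.2), 2715 bp inside from the 5′ end. Its own peak in replicate 1 had a signal of 57.6 and ranked 2329, and in replicate 2 a signal of 18.2 and ranked 10444. At pha-4, a FoxA gene that gives pharyngeal cells their identity, a band peak in an intron at 881 bp ranked 5924, with rank 4674 in replicate 1 and 22510 in replicate 2. At ceh-22, an NK-2 homeobox factor of pharyngeal muscle, a band peak at -837 bp ranked 5659, with rank 5734 in replicate 1 and 4263 in replicate 2. Each of these genes already had an optimal summit near a 5′ end, so none was gained. The ceh-22 site had ranks of like size in the replicates, while those of tbx-2 and pha-4 ranked higher in replicate 1. Unc-119, the rescue gene of such strains, and D2096.6, a gene expressed in the pharynx, had no band summit within 1 kb: the nearest lay at -11315 and -10236 bp.

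Further windows follow in the same form, for the peaks with a listed motif that ranked highest among the 15 strongest and those of the 15 strongest gained genes described below (dnc-4, lact-4, oops-1, sdc-2), the strongest with a T-box site near a gene (F22B5.4, Y46E12BL.2) and the strongest in collagen coding sequence (col-138, col-108). The last 4 were chosen after their values were seen. Windows that touch an annotated UTR, and those on a chromosome of which no sequence is shown here, were passed over.
dnc-4 peak, chrIV:8019917-8020017: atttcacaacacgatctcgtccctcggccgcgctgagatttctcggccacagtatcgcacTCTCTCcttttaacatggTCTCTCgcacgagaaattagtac
lact-4 peak, chrII:8481256-8481356: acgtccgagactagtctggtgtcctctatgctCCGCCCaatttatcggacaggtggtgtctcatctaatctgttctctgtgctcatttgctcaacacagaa
oops-1 peak, chrIV:5817737-5817837: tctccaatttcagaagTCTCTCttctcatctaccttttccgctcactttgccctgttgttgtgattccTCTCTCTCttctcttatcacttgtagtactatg
sdc-2 peak, chrX:11522243-11522343: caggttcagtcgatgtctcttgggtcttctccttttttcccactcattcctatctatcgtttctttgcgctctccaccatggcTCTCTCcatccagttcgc
F22B5.4 peak, chrII:8451628-8451728: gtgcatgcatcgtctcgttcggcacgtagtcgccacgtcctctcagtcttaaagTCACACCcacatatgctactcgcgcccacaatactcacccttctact
Y46E12BL.2 peak, chrII:15232207-15232307: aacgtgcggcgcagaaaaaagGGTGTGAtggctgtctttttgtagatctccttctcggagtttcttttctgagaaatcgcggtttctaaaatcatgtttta
col-138 peak, chrIV:17183197-17183297: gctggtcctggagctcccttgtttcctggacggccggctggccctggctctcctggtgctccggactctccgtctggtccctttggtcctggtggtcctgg
col-108 peak, chrIV:1769243-1769343: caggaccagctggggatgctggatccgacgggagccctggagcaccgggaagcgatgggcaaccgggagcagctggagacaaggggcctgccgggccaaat
Both T-box sites lie in promoters, in the F22B5.4 window on the minus strand and in the Y46E12BL.2 window on the plus strand. The collagen windows hold none of the 4 motifs, and their GC content is 67.3% at col-138 and 68.3% at col-108. The dnc-4, oops-1 and sdc-2 windows hold the GA repeat and the lact-4 window holds the GC-box, all read on the minus strand. The oops-1 summit lies at -3645 bp from the 5′ end, outside the promoter, and oops-1 was not gained.

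Nearly every band peak was found in both replicates at some rank, but fewer were strong in both. A peak of the relaxed list of both replicates overlapped (at least 1 bp) 2946 band peaks (96.5%, 95% exact interval 95.8 to 97.1), against 56.5% of all nuclear pooled peaks. The other 107 overlapped a peak of 1 replicate, of which 92 were found in replicate 1 and 15 in replicate 2. The leading peaks of a replicate are defined as its strongest, as many as the optimal set and the band hold together. Of the band peaks, 1196 overlapped leading peaks of both replicates (39.2%, interval 37.4 to 40.9), against 19.9% of all nuclear pooled peaks. A further 958 overlapped leading peaks of replicate 1 only, 717 those of replicate 2 only and 182 neither. With shorter lists, each the size of the optimal set, 179 overlapped in both (5.86%, against 11.5% of all nuclear pooled peaks), and 2188 in neither. The pooled list was made from the same replicates, so these shares describe the band and do not test it.

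Overlap fell steeply inside the band. Of its first 509 peaks 79.96% overlapped leading peaks of both replicates, and of its last 508 peaks 10.04% did. The shares in the parts between were 61.1%, 40.7%, 26.9% and 16.3%, with no step. The following peaks, the next stretch of equal length, reached 7.57% with the leading peaks and 84.8% with the relaxed lists. The leading peaks end at the rank that ends the band, in lists from the same replicates, so the rule in large part fixes the fall with rank.

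**Figure D1:**
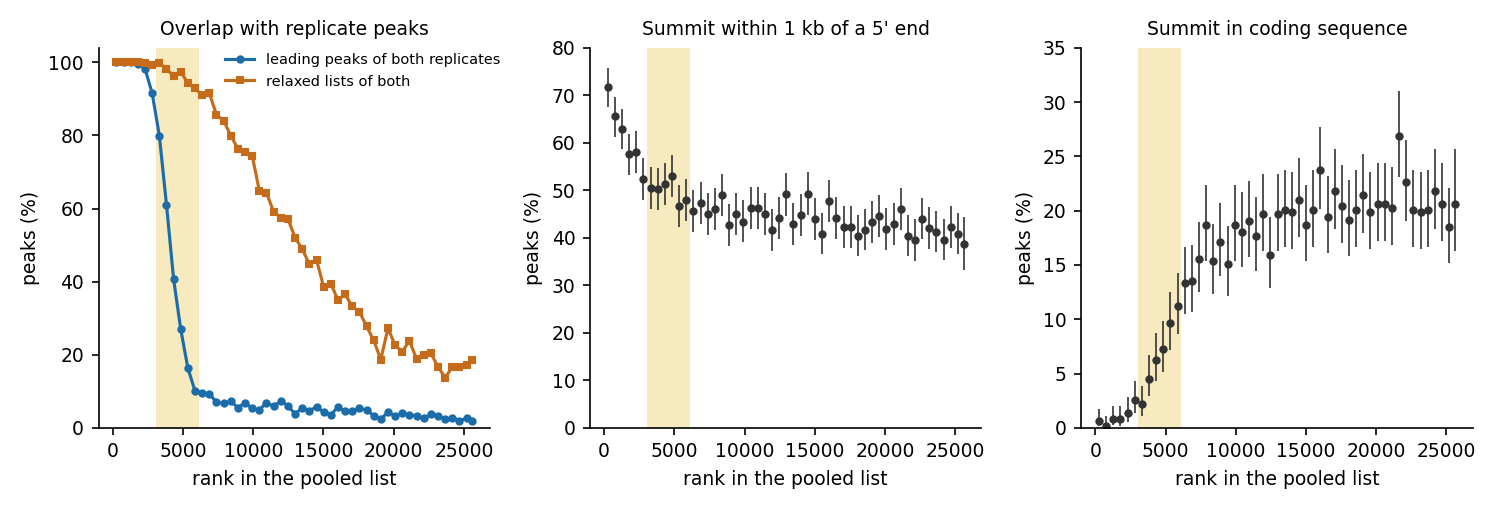
Shares of nuclear pooled peaks (percent, y axes) along the rank in the pooled list (x axes), in bins of at most 509 peaks, with the band shaded and 95% exact intervals as bars in the middle and right panels. Overlap with the leading peaks of both replicates falls from 79.96% to 10.04% across the band, while the coding share in the right panel rises from 2.16% to 11.2%.

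For many band peaks the replicates ranked the site differently. Each band peak was given the overlapping replicate peak with the nearest summit, called its own peak. Across 2946 band peaks Spearman's rho between the own signals was -0.321 and Pearson's r on the log2 scale was -0.276. The same rho was 0.721 in the optimal set, -0.436 in the following peaks and 0.284 in the 510 weakest peaks that had an own peak in each replicate. These values are descriptions only, since the points share both libraries and each group was taken by its pooled signal. The median own rank was 4953 in replicate 1 and 5251 in replicate 2, and the median own signals were 37.6 and 26.2. The own peak held a rank within the limits of the band in both replicates for 674 band peaks. It ranked above these limits in replicate 1 only for 319, in replicate 2 only for 391 and in both for 22, and 20 of these 22 had an optimal summit within 1 kb. It ranked below them in both for 238. Both own summits lay within 100 bp of the band summit in 80.02% of peaks, against 96.01% of nuclear optimal and 58.99% of the following peaks.

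**Figure D2:**
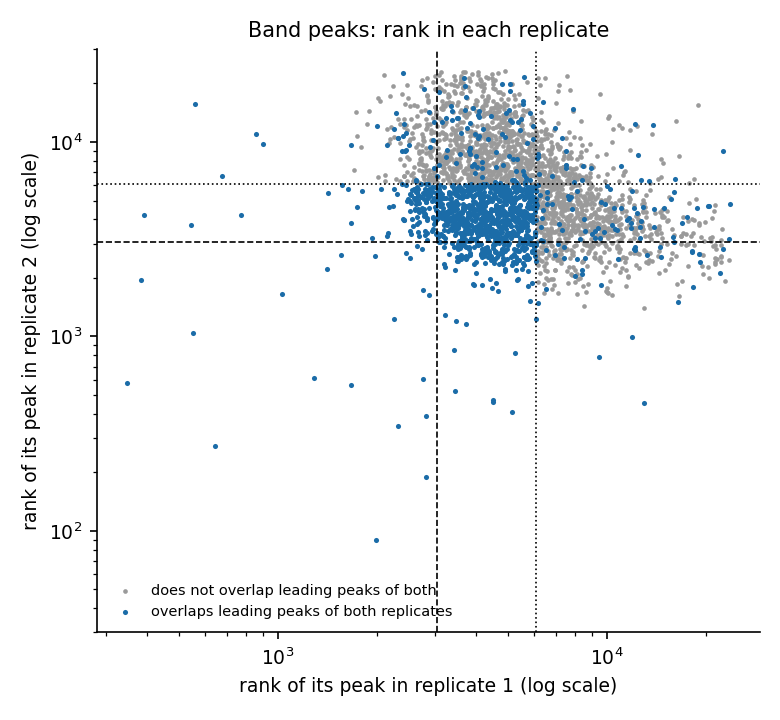
Rank of the own peak in replicate 1 (x axis, log scale) against replicate 2 (y axis, log scale) for the 2946 band peaks that have one in each relaxed list, with the band's limits dashed (upper) and dotted (lower). Blue points overlap leading peaks of both replicates, which can be a stronger neighbour of the own peak, and 674 points lie between the dashed and dotted lines on both axes.

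Of the 15 strongest band peaks, 14 overlapped leading peaks of both replicates, and 5 had their summit within 1 kb of the nearest 5′ end. The exception, in an intron of H28G03.2, had a signal of 68.1 in replicate 1 and of 15.3 in replicate 2. The peak at sti-1, an Hsp90 co-chaperone gene (chrV:773256-773691, summit at -44 bp), had signals of 44.4 and 36.2 in replicates 1 and 2. The peak at dnc-4, a dynactin subunit gene (summit at -159 bp), had 46.5 and 31.1. Both genes had no optimal summit and were gained. Distant members of the 15 include peaks upstream of the caspase gene ced-3 (-1919 bp), the calmodulin gene cmd-1 (-4586 bp) and the calcium channel subunit gene ccb-2 (-1469 bp).

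Few band peaks lay beside an optimal peak. The summit lay within 1 kb of an optimal summit for 342 (11.2%, interval 10.1 to 12.4), against 7.30% of all nuclear pooled peaks outside the optimal set, and 204 intervals (6.68%) overlapped an optimal interval. The share exceeded that of the following peaks by 2.95 points (1.46 to 4.44). The median distance to the nearest optimal summit was 7729 bp.

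Band summits lay near gene starts less often than optimal ones and in coding sequence more often. Within 1 kb of a 5′ end of a protein-coding gene were 1526 summits (49.98%, interval 48.2 to 51.8), against 46.6% of all nuclear pooled peaks and 41.2% of genome bases. The replicates alone, at the same ranks of their own lists, gave 50.1% ± 0.741 (SD, n = 2). The share minus that of the optimal peaks was -11.35 points (-13.8 to -8.87), and minus that of the following peaks it was 4.06 points (1.56 to 6.56). Promoters, the 1 kb upstream, held 39.4% of band summits against 55.6% of optimal and 30.4% of following summits. Introns held 21.8% and 3′ UTRs 1.80%, against 17.01% and 0.231% of optimal summits.

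Coding sequence outside promoters held 209 band summits (6.85%), against 15.7% of all nuclear pooled peaks and 20.999% of genome bases. The share minus that of optimal peaks was 5.79 points (4.84 to 6.79), and minus that of the following peaks it was -8.75 points (-10.3 to -7.18). It rose from 2.16% in the first 509 band peaks to 11.2% in the last 508. It was 4.60% in band peaks that overlapped leading peaks of both replicates and 8.06% in those that did so in 1, a difference of -3.46 points (-5.21 to -1.66). Overlap also fell with rank inside the band, and what part rank had in this difference was not tested. The replicates alone gave 8.89% ± 1.04 (SD, n = 2), above the pooled value. The windows at coding summits had a median GC content of 53.5%, against 45.5% over the band and 34.7% in its flanks, and what part GC content had in the share was not tested.

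**Figure D3:**
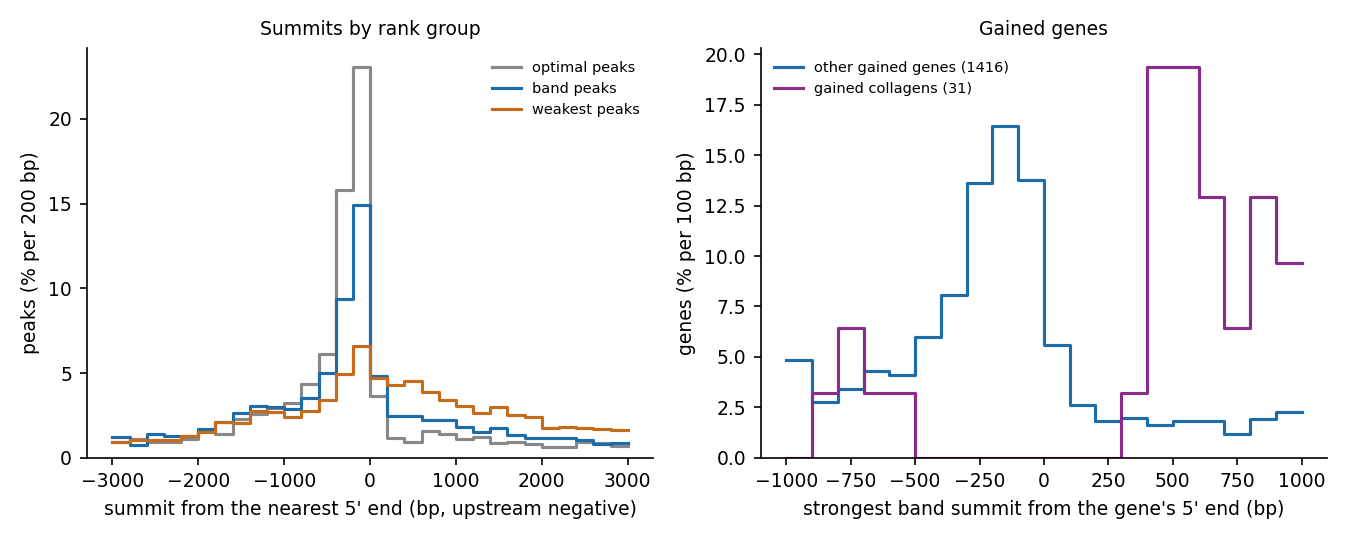
Left, distance of summits from the nearest 5′ end (bp, x axis, upstream negative) as percent of peaks per 200 bp (y axis) for optimal peaks, the band and the weakest pooled peaks, a last stretch of equal length. Right, distance of the strongest band summit from the gene's own 5′ end as percent of genes per 100 bp, where the 31 gained collagens have a median of 572 bp and most other gained genes lie upstream.

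The X chromosome held 19.7% of band peaks and chromosome V 15.03%. The X holds 17.7% of the nuclear genome length and 13.7% of protein-coding genes, and had 20.5% of nuclear optimal and 16.05% of the weakest peaks. Chromosome V holds 20.9% of the length and 25.004% of the genes, and had 12.5% of nuclear optimal and 16.9% of the weakest peaks. These chromosome shares were not tested.

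Band summits carried the same short motifs as the optimal peaks, at lower shares. The GA repeat lay in 674 summit windows (22.1%), in 4.93% of windows 500 bp away on either side and in 5.18% of genome windows. The element CTGCGTCT lay in 150 (4.91%) against 0.622% of flanks and 0.521% of genome windows, and the GC-box in 180 (5.90%) against 1.51% of flanks and 1.60% of genome windows. Against optimal summits the difference was -8.91 points for the GA repeat (-11.1 to -6.69), -5.34 for CTGCGTCT (-6.67 to -4.02) and -1.92 for the GC-box (-3.19 to -0.647). Against the following summits it was 5.47 points (3.49 to 7.45), 1.18 (0.158 to 2.21) and 1.18 (0.0533 to 2.31). Coding summits of the band had the GA repeat in 6.70% of windows and promoter summits in 22.5%, a difference of 15.8 points (10.96 to 19.4).

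For the T-box site no such difference between the band and another group of peaks was resolved. GGTGTGA lay in 44 band windows (1.44%, interval 1.05 to 1.93), in 0.475% of flanks and in 0.668% of genome windows, and the difference between summits and flanks was 0.966 points (0.546 to 1.47). Its share differed from that of optimal summits (1.32%) by 0.12 points, with an interval from -0.47 to 0.72, and from that of the following peaks (2.03%) by -0.59 points (-1.26 to 0.07). From that of the weakest peaks (1.18%) it differed by 0.26 points (-0.32 to 0.85), and the other groups were not compared with each other. Of the 44 peaks, 22 overlapped leading peaks of both replicates and 16 lay within 1 kb of a 5′ end. The peak at F22B5.4 had signals of 62.6 in replicate 1 and 13.9 in replicate 2, and that at Y46E12BL.2 had 43.6 and 32.9. None of the 4 motifs lay in 2137 band windows (69.997%).

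**Figure D4:**
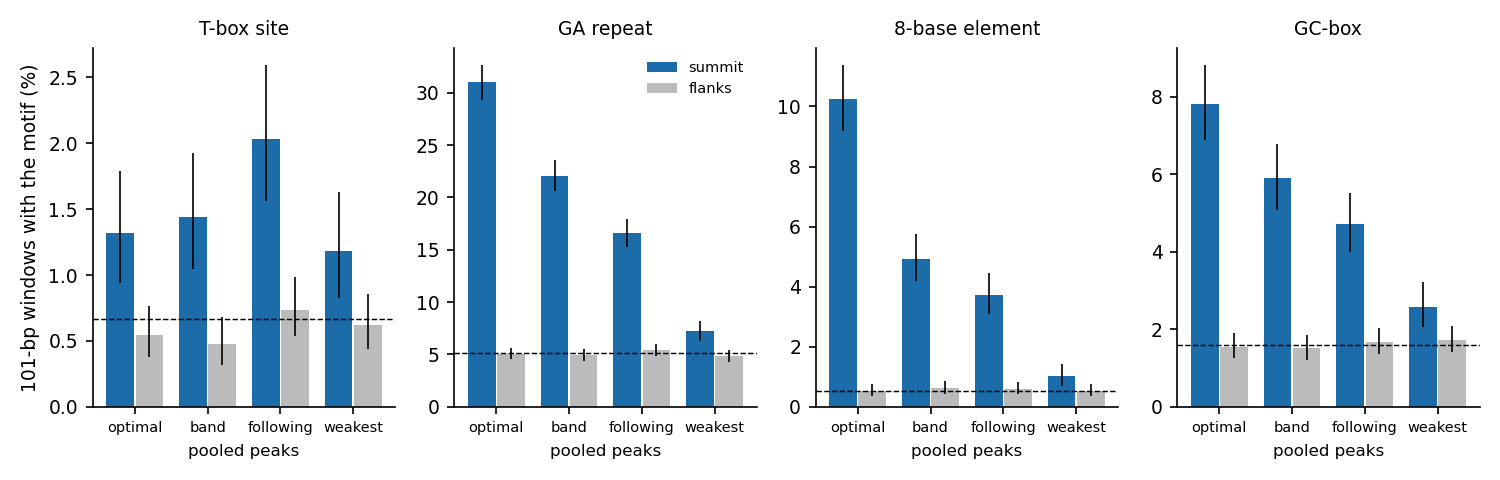
Percent of windows of 50 bp to either side that hold each motif (y axes) at summits and in flanks 500 bp away, for 4 groups of pooled peaks, with 95% exact intervals and the genome share as a dashed line. GA repeat, the 8-base element CTGCGTCT and GC-box fall from the optimal to the weakest peaks, and the T-box site is at 1.44% in the band against 1.32% in the optimal set.

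Adding the band to the optimal set raised the number of protein-coding genes with a summit within 1 kb of a 5′ end from 2289 to 3736 of 19973 (11.5% to 18.7%). Band summits lay near 1741 genes, of which 294 (16.9%) already had an optimal summit. The remaining 1447 are called gained, 8.18% of the 17684 genes without an optimal summit (interval 7.78 to 8.60). With only those band peaks that overlapped leading peaks of both replicates, called supported in both below, 509 genes were gained (2.88%). Support in this sense can come from a stronger neighbour of the own peak. The following peaks in place of the band would have added 1282 genes to the optimal set, and the weakest peaks 1123. On top of the band the following peaks reached 1107 of the 16237 genes left (6.82%). The strongest band summit lay upstream of 76.02% of the gained genes, at a median of -173 bp, and 497 gained genes shared their peak with another gained gene.

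Among gained genes whose band peak was supported in both replicates, the 15 with the highest pooled signal came from 12 peaks of ranks 3055 to 3083. They include sdc-2, which directs dosage compensation to the X chromosome (-414 bp, signal 54.8 in replicate 1 and 29.2 in replicate 2), and rme-1, an endocytic recycling gene (-744 bp, 40.4 and 38.6). They also include eva-1, a co-receptor for the guidance cue SLT-1 (-297 bp, 45.03 and 36.4), and tbc-20, of a family of Rab GTPase activators (961 bp, 36.6 and 41.7). By rank within each replicate's list, the own peak at sdc-2 stood higher in replicate 1 (2521 against 4397), and those at the other 3 genes stood higher in replicate 2.

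Cytosolic ribosomal proteins, chromatin remodellers, body wall muscle and epidermal genes had the largest shares of gained members among the lists, and chemoreceptors the smallest above 0. Of 36 gene lists, 24 had a larger share of gained members than all genes (8.18%), the 95% interval lay above it in 9 and below it in 3, and 7 lists gained none. A share is taken over the members that had no optimal summit. These counts describe the lists, which were not tested for enrichment.

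Of cytosolic ribosomal protein genes, 12 of 24 left were gained (50%, interval 29.1 to 70.9), 5 of them with support in both replicates, and 59 of the 83 members had an optimal summit before. The strongest was rps-4 (-229 bp), with signals of 44.4 in replicate 1 and 40.4 in replicate 2, followed in rank by rpl-32 (-394 bp, 36.2 and 41.9). The summit lay upstream for 10 of the 12. With each summit given to its nearest 5′ end alone, 8 genes of this list were gained. Translation initiation factors gained 5 of 18, 1 of them with support in both replicates, among them the scaffold gene ifg-1. Mitochondrial ribosomal proteins gained 9 of 54 (16.7%, 7.92 to 29.3), led by mrpl-47, and 2 of the 9 had support in both replicates. This interval includes the share of all genes. The proteasome gained 6 of 19, 2 with support in both replicates, with the base ATPase genes rpt-1 and rpt-4 among them, and the rpt-4 site had no peak in replicate 1.

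Of body wall muscle structure genes, 11 of 25 were gained (44%, 24.4 to 65.1), 5 with support in both replicates. The strongest sites lay at unc-52, the perlecan that anchors muscle to the epidermis (-110 bp), and at zyx-1, the zyxin of attachment sites (6 bp). At unc-52 the own signals were 21.7 in replicate 1 and 40.4 in replicate 2, and at zyx-1 they were 44.8 and 25.997. The thin filament genes lev-11 (tropomyosin, -390 bp), mup-2 (troponin T, -280 bp) and unc-27 (troponin I, -281 bp) were gained too, as were myo-3, a body wall myosin (912 bp), and pat-6, the parvin (-307 bp). The own peak at lev-11 ranked 2467 in replicate 1 and 8372 in replicate 2, and that at mup-2 ranked 12165 and 3437, so the replicate with the higher rank differed between them. In pharyngeal muscle 2 of 11 were gained, myo-2 and eat-20 (-729 bp, 32.4 and 21.4), neither with support in both replicates. Among regulators of the pharynx 2 of 13 were gained, neither with support in both replicates. They were ceh-34, a sine oculis-type homeobox gene, at -1 bp (48.03 and 21.8), and skn-1, which specifies the lineage that makes part of the pharynx, at -515 bp (26.5 and 30.8). The intervals of pharyngeal muscle (2.28 to 51.8) and of the regulators (1.92 to 45.4) include the share of all genes.

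Genes of all neurons gained 7 of 23 (30.4%, 13.2 to 52.9), but 4 when replicate 2 was left out and 6 when replicate 1 was. They were, among others, unc-33 (CRMP, an axonal cytoskeleton protein), unc-116 (kinesin heavy chain), tom-1 (tomosyn) and snb-1 (synaptobrevin). Of the 7, tom-1 alone was supported in both replicates (41.4 and 24.8). Factors that specify neurons gained 7 of 41 (17.1%, 7.15 to 32.1), led by sox-2 (-102 bp, 45.4 and 40.1). Of these 7, 2 had support in both replicates, and the interval includes the share of all genes. The cell cycle list gained 9 of 25 (36%, 17.97 to 57.5), all 9 with the summit upstream and 4 with support in both replicates, and included cki-2, a cyclin-dependent kinase inhibitor, cdc-25.2, a phosphatase, mcm-4 of the replicative helicase and orc-1. The NuRD and SWI/SNF remodellers gained 4 of 9, lin-40, snfc-5, swsn-9 and swsn-4, of which 2 had support in both replicates. They gained 2 when each summit was given to its nearest 5′ end alone.

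Other lists gained few members or none. Chemoreceptors gained 8 of 1352 (0.592%, 0.256 to 1.16), led by srr-10, C-type lectins 3 of 234 (1.28%) and F-box genes 13 of 318 (4.09%), or 8 when either replicate was left out. Nuclear hormone receptors gained 19 of 252 (7.54%, 4.60 to 11.5), near the share of all genes, led by nhr-57. None was gained among 25 intestinal genes (upper limit of the exact interval 13.7%), among 21 T-box genes (16.1%) and among 23 hlh genes (14.8%). The same was true of 17 neurotransmitter genes, 15 pharyngeal gland and epithelium genes, 14 TGF-beta genes and 7 DREAM genes, with upper limits from 19.5% to 40.96%. Each of these limits lies above the share of all genes, 8.18%, so none of these lists is resolved from it.

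**Figure D5:**
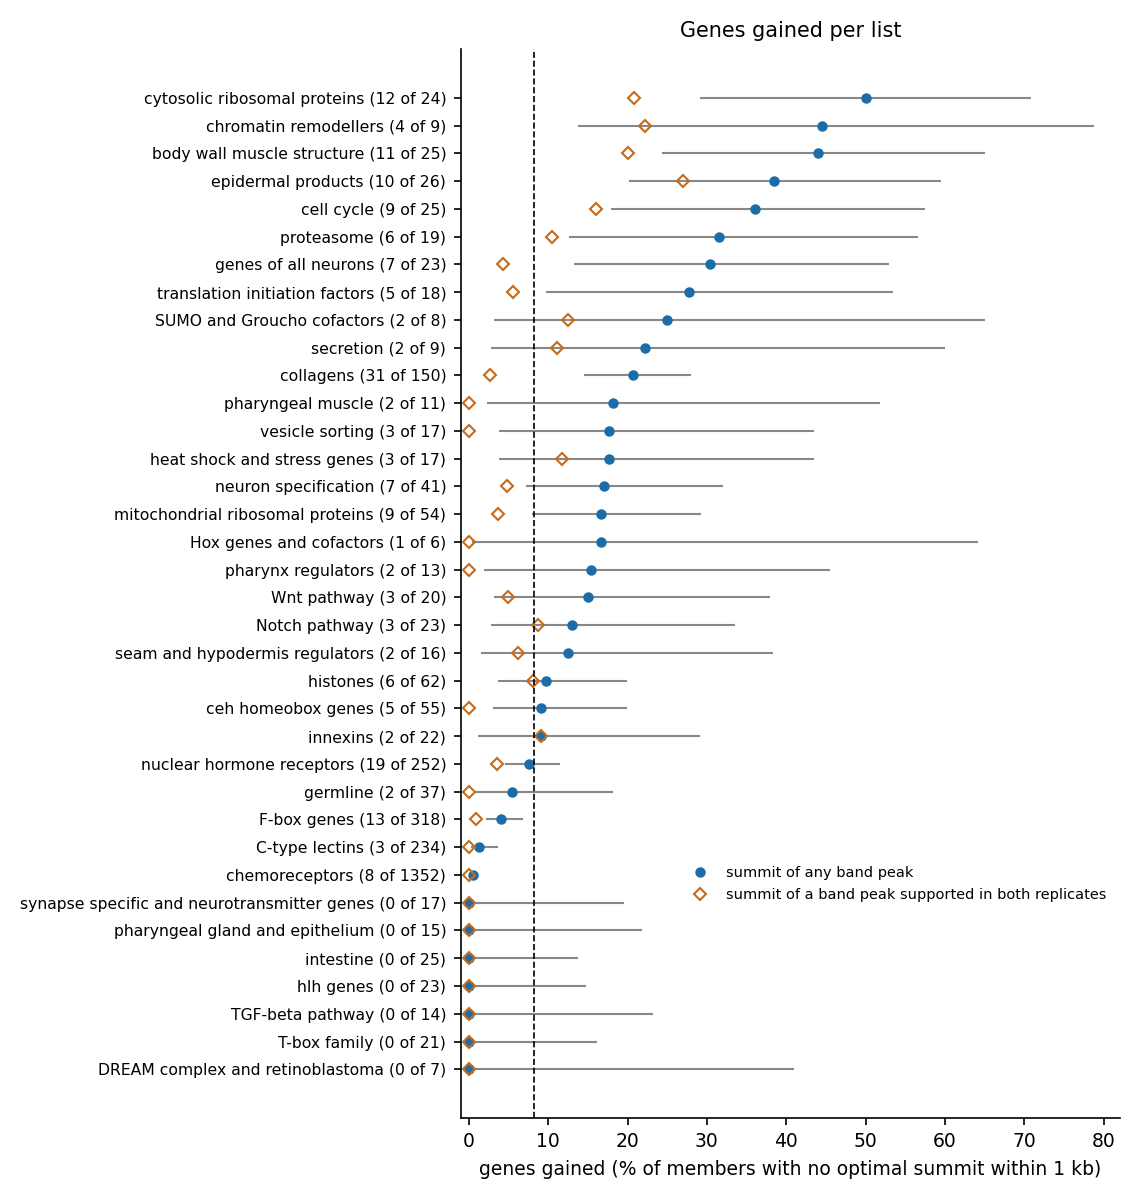
Percent of members without an optimal summit that were gained (x axis) for each of 36 gene lists (y axis, gained of members left in parentheses), with 95% exact intervals and the share of all genes, 8.18%, as a dashed line. Open diamonds count only band peaks supported in both replicates, and for collagens they stand at 2.67% against 20.7% for all band peaks.

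Collagens, the structural proteins of the cuticle, were the family of shared symbol prefix with the most gained genes. Of 156 col genes 6 (3.85%) had an optimal summit, and 31 of the remaining 150 were gained (20.7%, interval 14.5 to 28.0). The strongest band summit lay in the gene's own coding sequence for 24 of the 31 and upstream for 5, at a median of 572 bp. Of the other 1416 gained genes 79 (5.58%) had it in their own coding sequence. Median gene length was 1220 bp for collagens and 2027 bp for protein-coding genes in general. The 1 kb window for a gain therefore takes in more of a typical collagen gene. The strongest were col-138 (482 bp, rank 3436), with signals of 52.7 in replicate 1 and 20.6 in replicate 2, and col-108 (705 bp, rank 3648), with 37.9 and 32.4. At col-122 replicate 1 had a signal of 28.9 and replicate 2 no peak.

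Few gained collagens were supported in both replicates. They were 4 of the 31 (12.9%, against 34.7% of all gained genes by their strongest summit), while the own peak was a leading peak for 19 in replicate 1 and 11 in replicate 2. When the window was 500 bp, 8 collagens were gained. When the optimal set and the band were both taken at the same ranks of replicate 1 alone, 29 were gained, and of replicate 2 alone, 16. Of all summits in any coding sequence, collagens held 28 of 262 in the band (10.7%), 1 of 46 in the optimal set, 24 of 564 in the following peaks (4.26%) and 5 of 738 in the weakest (0.678%). They make up 0.613% of coding bases. The 28 windows, some of them in promoters, had a median GC content of 60.9% and held the GA repeat once and none of the other motifs. The 186 band coding summits outside promoters and col genes, a set drawn differently, had a median of 52.97%. The placement of reads that match several genes of a family is not given in the sources used here. What part gene length, GC content or read placement had was not tested.

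Other cuticle and junction genes of the epidermis gained 10 of 26 (38.5%, 20.2 to 59.4), 7 with support in both replicates. In 6 of the 10 the summit lay in the gene's own coding sequence: dpy-2, ram-2, dpy-4, sqt-3, dpy-17 and bli-2, which encode cuticle collagens outside the col numbering. Their windows had GC contents from 49.5% to 70.3%. Signals at dpy-2 (994 bp) were 45.5 in replicate 1 and 26.3 in replicate 2, and at dpy-4 (634 bp) both own peaks were leading peaks (34.5 and 24.9). The other 4 had upstream summits: hmr-1, the classical cadherin, dpy-14, a collagen, let-413, the Scribble homologue of cell polarity, and sma-1, a spectrin.

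Some long genes held several band peaks. The cadherin gene hmr-1 held 8 within the gene or 1 kb of it beside 3 optimal summits, over a gene of 58913 bp. Ell-1 (an elongation factor), fkh-7 (a forkhead factor) and mbk-2 (a DYRK kinase) held 6 each. Of the 6 genes that held 5, R10E12.2 and fmi-1, the Flamingo cadherin, had no optimal summit. In all, 30 genes held at least 4.

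Genes of small RNAs also gained band peaks, and among the kinds named here only tRNA genes exceeded the share of genes annotated only as ncRNA. Within 250 bp of the gene, 69 of the 427 tRNA genes that had no optimal summit gained a band summit (16.2%). The share was 5.01% for annotated genes of any kind, 3.25% for those of 500 bp or less and 9.36% for genes annotated only as ncRNA. Of the other kinds, 18 snoRNA genes (6.74%), 6 snRNA genes (5.36%) and 12 miRNA genes (4.98%) were gained, none of them above the ncRNA share, and no rRNA gene of 20 was. Median gene length was 72 bp for tRNA, 140 bp for ncRNA and 196 bp for all genes. The following peaks reached 22 further tRNA genes.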

How the data were processed

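The authors called peaks on each replicate and on the pooled data, per the labels' file descriptions, and deposited relaxed lists with background and an optimal set passed by the irreproducible discovery rate. Each deposited list gives a peak signal, here used for ranks within a list, a −log10 q-value and a summit offset. The sources used here do not give aligner, caller, threshold or normalization. Read depth is unknown, and intervals (95%, Clopper-Pearson, or Newcombe for differences) cover counting error only; neighbouring peaks and genes of a family are not independent. No p-values were computed. Nothing tells separate cultures apart beyond the replicate labels, so the spread between replicates may be technical.

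Overlap needed 1 bp. Genes came from Ensembl release 115 of WBcel235 (19973 nuclear protein-coding genes), and no peak passed a chromosome end. A gene was gained with a band summit, and no optimal summit, within 1 kb of any annotated 5′ end. With 1 replicate left out, the same ranks of the other replicate's own list replaced both the optimal set and the band. Location classes took precedence in the order promoter, 5′ UTR, coding, 3′ UTR, intron, rest. Motif windows reached 50 bp to either side of the summit, on both strands, and flanks lay 500 bp away. No sequence of chromosome I is shown. The members and the 36 gene lists (523 symbols entered by hand, 12 not found) were chosen with earlier results of these data known. The text names tbx-2, unc-119 and 4 genes of the pharynx set in the plan, genes nearest the 15 strongest and the edge peaks, the 15 strongest gained genes supported in both replicates, up to 4 strongest gained genes a list, up to 3 in each of the 6 families with most gains, and the 5 genes most crowded with summits (of 6 tied for the last place, the shortest gene). Fmi-1 and other genes of a list, such as unc-27, myo-3, pat-6, ifg-1, rpt-4, his-1, his-2 and the coding collagens of the epidermal list, were chosen after their values were seen. The overlap, gene and motif steps were checked on simulated lists with known answers. Python 3.11.15, pandas 2.3.3 and scipy 1.17.1 were used.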

Additional observations from a re-analysis of the deposited data

How the results depend on the processing

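The share of band peaks found in both replicates, 39.2%, follows the rule for overlap: 35.8% with an overlap of 50% of each interval, 25.02% with replicate summits within 100 bp, 5.86% with replicate lists the size of the optimal set, 96.5% with whole relaxed lists and 60.6% in the upper part of the band. The share within 1 kb of an optimal summit, 11.2%, was 6.75% within 500 bp, 21.7% within 2 kb and 6.68% for overlapping intervals. The share near 5′ ends, 49.98%, was 35.9% within 500 bp, 70.1% within 2 kb and 50.9% for band peaks with replicate summits within 100 bp in both, an alternative chosen after seeing the data, as were all for coding sequence; with 1 replicate left out it was 49.6% to 50.6%. The coding share, 6.85%, was 4.60% for peaks found in both replicates, 3.93% with replicate summits within 100 bp, 4.33% in the upper part of the band and 8.16% to 9.63% with 1 replicate left out. The number of genes gained, 1447, was 509 with support in both replicates, 396 with replicate summits within 100 bp and 769 from the upper part of the band. With 1 replicate left out it was 1421 to 1433. That alternative ranks as many peaks from the other replicate's list, so its count does not show whether the same genes were gained. The T-box share, 1.44%, was 2.95% in windows of 100 bp to either side, 0.721% in 51-bp windows and 1.87% to 2.0963% with 1 replicate left out. Lists above the share of all genes numbered 24, and 16 to 26 under the 7 alternatives run. In all, 76 of 146 values moved by less than the replicate SD, the interval of the main value or 1.5 times a count. The ce10 lists were used for overlap and distance only. No paired analysis was possible because there was 1 group.

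Depth per library is unknown, so a peak missing from 1 replicate may be a matter of depth, which was not tested. With 2 replicates of 1 line, support in both says nothing of other lines. Genes that share a promoter are gained together: with each summit given to its nearest 5′ end alone, 1210 genes were gained. Translation initiation factors then gained 1 in place of 5, chromatin remodellers 2 in place of 4 and cytosolic ribosomal proteins 8 in place of 12.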

Other observations

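Families with a shared symbol prefix are named here for having the most gained genes, and the share of all genes was 8.18%. The rbm genes (RNA-binding proteins) gained 7 of the 11 without an optimal summit (63.6%, 30.8 to 89.1), with rbm-42, rbm-3.2 and rbm-5 the strongest. The unc genes gained 22 of 68 (32.4%, 21.5 to 44.8), led by unc-50 and unc-69 at 1 shared peak. The pqn genes (glutamine- and asparagine-rich proteins) gained 10 of 48 (20.8%, 10.5 to 34.99), led by pqn-68. Of 175 families, 65 gained none. The tag genes gained 7 of 40 (17.5%, 7.34 to 32.8), led by tag-77, and this interval includes the share of all genes.

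Histone genes gained 6 of 62 (9.68%, near the 8.18% of all genes), of which 5 had support in both replicates: his-5 and his-6 shared a peak of rank 3478, and his-1 and his-2 one of rank 3480. At the latter peak replicate 1 had a signal of 50.8 and replicate 2 of 26.1. The heat shock pair hsp-16.2 and hsp-16.41 also shared 1 peak, with signals of 39.2 in replicate 1 and 48.6 in replicate 2. Band windows overlapped soft-masked repeats for most of their length in 10.02% of cases, against 7.84% of optimal and 26.8% of the weakest peaks.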
